A study of Homo sapiens with 9 samples.

Results

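Complement is a set of proteins that mark foreign or damaged cells for removal. The transcripts described here come from 8 of its genes, namely the components C1R, C1S, C3 and CFB, the inhibitor SERPING1, and the surface regulators CD46, CD55 and CD59. They were chosen by name, as all probes whose gene name on the array is that of 1 of these genes. These are 14 of 58201 probes. The study hybridized RNA of 3 stably transfected derivatives of T47D, a widely used human breast cancer cell line of luminal type, to 9 single-color arrays, 3 a line. T47D-PA6 expresses full-length PTH-AS, a long noncoding RNA transcribed next to the parathyroid hormone gene. T47D-PA5 expresses an incomplete PTH-AS that lacks part of its 5′ side, and T47D-VC1 received the vector without an insert. The study compared the full-length line with both others, so that effects of taking up and expressing foreign DNA could be told from those of PTH-AS. All 3 lines went through transfection with pTARGET, a mammalian expression plasmid, and for each construct the study worked with 1 stable line picked after G418 selection among several with high expression. What a difference owes to PTH-AS and what it owes to the picked line therefore cannot be told apart. PTH-AS itself was not analysed here.

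Complement is started by 3 routes that meet at C3. In the classical route the proteases C1r and C1s, held by C1q, are switched on in turn and cut C4 and C2. The C1 inhibitor, which SERPING1 encodes, blocks C1r and C1s. Cleaved C3 binds to surfaces, and there factor B, which CFB encodes, joins it to form the alternative-route enzyme that cuts more C3. Cells protect themselves with regulators on their membrane. CD55 takes apart the enzymes that cut C3 and C5, CD46 is a cofactor for the cleavage of C3b and C4b, and CD59 stops the last step, in which C9 is built into a pore. Hepatocytes make most of the plasma proteins of this system. Epithelial cells also make C3 and factor B, and transcription of several of the components is known to respond to interferons and other cytokines.

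Full-length PTH-AS cells had more RNA of CFB, C1R and SERPING1 than vector control cells and less of CD46. CFB rose 8.64-fold, C1R 3.79-fold and SERPING1 3.08-fold, while CD46 fell to 0.753 of the control level. The SERPING1 signals in T47D-VC1 lay near background, so its fold depends on how background is handled. CFB and CD46 differed in the same directions between T47D-PA6 and T47D-PA5. For C3, CD55 and CD59 no comparison passed the test, and C1S was too dim to be tested. In a whole culture, fewer cells with a transcript and less of it in each cell cannot be told apart. Of the 14 probes, 10 passed the filter on dim probes, and these stand for 7 of the 8 genes.

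The filter kept probes that the scanner software marked as well above background throughout 1 line or more. Values are quantile-normalized signals in the arbitrary units of the scanner, a line's mean is taken on the log2 scale, and SD is that of the 3 log2 values. Differences are log2 fold changes from a limma fit over all 26171 tested probes, with their standard error (SE), and adjusted p-values are those of Benjamini and Hochberg over the same probes. Where several probes of a gene were tested, the gene was read from the brightest by mean log2 signal, and it was called at an adjusted p-value under 0.05. The comparisons are written PA6/VC1, PA5/VC1 and PA6/PA5, and a positive log2 fold change means a higher level in the line named first. Replicate 1 of each line stood apart from replicates 2 and 3. The 3 replicate 1 arrays lay on 1 slide that was scanned in an earlier run than the other 2 slides. Within a line, the median absolute log2 difference between replicates 2 and 3 was 0.09 to 0.11, and that between replicate 1 and either of them was 0.21 to 0.27. The labels do not say whether the replicates are separate cultures, so the p-values measure the spread between these arrays, which may be technical.

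In PA6/VC1, 3 of the 7 tested genes were called higher, beside 4.74% of all 20106 tested genes, and 1 of 7 was called lower, beside 5.38%. Of the 3 called higher, SERPING1 passed the filter only through T47D-PA5 and T47D-PA6, the lines where it was higher. The 3 arrays of T47D-PA6 all lay above those of T47D-VC1 for 3 members and all below them for 2, where the shares of all genes were 13.1% and 17.8%. In PA5/VC1, limma called 0 of the 7 genes in either direction, and 3 of them had an unadjusted p-value under 0.05. The unpaired test that the methods name also called 0. In that comparison 1.35% of all genes were called higher and 0.298% lower. The arrays did not overlap for 2 members that were higher in T47D-PA5 and for 0 that were lower, beside 11.2% and 12.2% of all genes. In PA6/PA5, 1 member was called higher, beside 3.62%, and 1 was called lower, beside 6.03%. Arrays did not overlap for 3 members that were higher and 3 that were lower, beside 14.3% and 18.4%. The comparisons share arrays of the same lines, so they are not independent of each other. The median log2 fold change of the 7 tested members in the 3 comparisons, in this order, was 0.46, 0.30 and 0.80, and that of all tested genes was -0.03, -0.03 and -0.00.

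**Figure D1:**
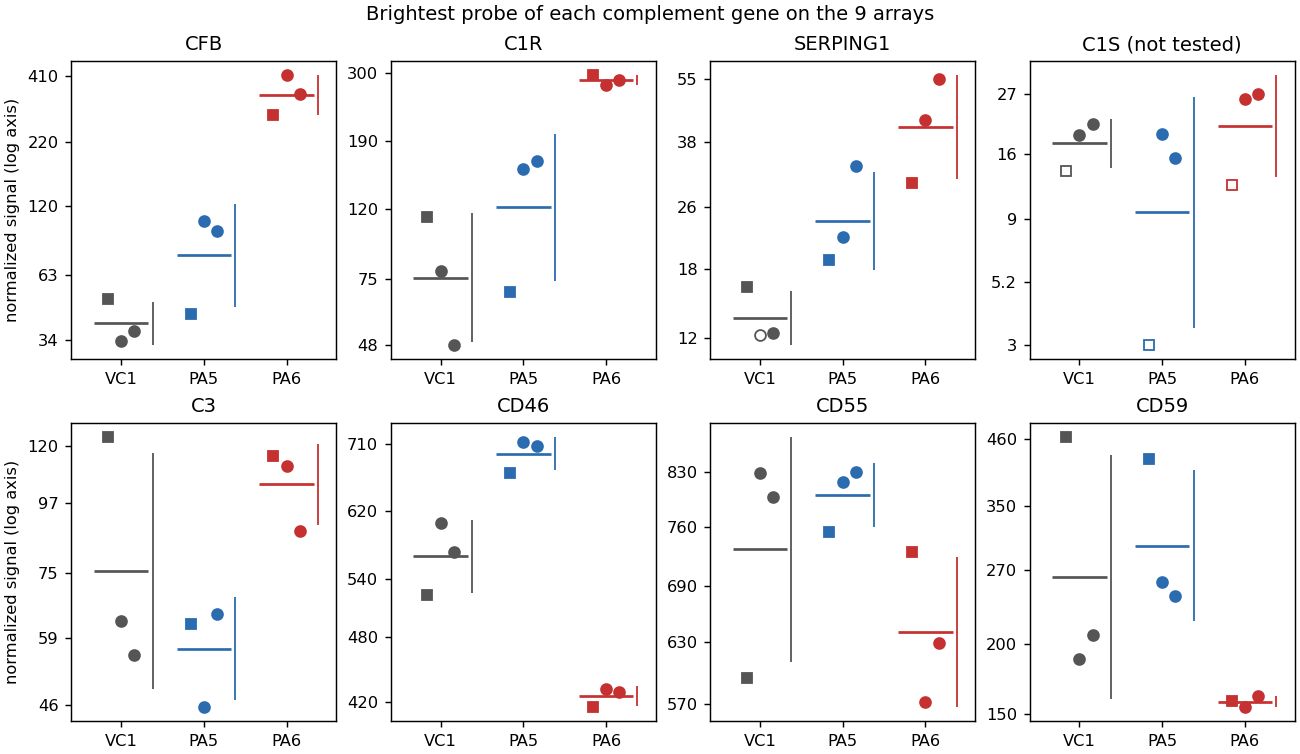
Normalized signal (log axis) of the brightest probe of each of the 8 genes on the 9 arrays, with T47D-VC1 in gray, T47D-PA5 in blue and T47D-PA6 in red. Squares are replicate 1 of each line, scanned in the earlier run, and circles are replicates 2 and 3. Open symbols were not well above background. Horizontal bars are means and vertical lines show 1 SD on the log2 scale. All T47D-PA6 arrays lie above all others for CFB and C1R and below all others for CD46 and CD59.

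The start of a gene holds sequences through which its transcription is controlled, and the table of promoters used here, from RefSeq on GRCh38.p14, held 300 bases around the start for 5 of the 8 genes, 10 promoters in all. C1S, C3 and SERPING1 were not among them. The promoters were searched on both strands for GAAANNGAA, the core of the interferon-stimulated response element, found in many genes that respond to type I interferons. They were also searched for TTCNNNGAA, the gamma-activated sequence, found in many genes that respond to interferon gamma, and for GGGANTTTC, a core of the NF-kB site. The first was found in 8.11% of all 35116 promoters of the table, the second in 7.66% and the last in 1.28%. Of the 10 promoters of these genes, 1 held the first, 4 held the second and 0 held the third. The promoters of CFB and of the second start of C1R are shown because these genes rose and hold matches, and that of CD46 because it fell and holds none. This choice followed the calls, and a link between matches and direction was not tested. CD59, not called but lowest on the T47D-PA6 arrays, holds the gamma-activated sequence too. Capitals mark the matches.

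CFB promoter, chr6:31945845-31946144, + strand: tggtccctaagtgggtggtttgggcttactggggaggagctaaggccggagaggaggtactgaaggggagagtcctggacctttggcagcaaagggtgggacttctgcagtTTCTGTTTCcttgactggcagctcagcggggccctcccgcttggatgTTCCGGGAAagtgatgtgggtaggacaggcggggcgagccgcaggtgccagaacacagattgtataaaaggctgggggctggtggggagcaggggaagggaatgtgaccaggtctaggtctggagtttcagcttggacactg
C1R promoter of its second start, chr12:7091844-7092143, - strand: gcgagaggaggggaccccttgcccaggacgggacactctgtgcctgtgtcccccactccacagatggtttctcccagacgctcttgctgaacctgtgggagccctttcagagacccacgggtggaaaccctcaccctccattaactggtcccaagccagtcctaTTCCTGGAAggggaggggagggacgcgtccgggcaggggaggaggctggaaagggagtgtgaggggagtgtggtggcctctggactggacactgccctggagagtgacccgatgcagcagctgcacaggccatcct
CD46 promoter of its first start, chr1:207751788-207752087, + strand: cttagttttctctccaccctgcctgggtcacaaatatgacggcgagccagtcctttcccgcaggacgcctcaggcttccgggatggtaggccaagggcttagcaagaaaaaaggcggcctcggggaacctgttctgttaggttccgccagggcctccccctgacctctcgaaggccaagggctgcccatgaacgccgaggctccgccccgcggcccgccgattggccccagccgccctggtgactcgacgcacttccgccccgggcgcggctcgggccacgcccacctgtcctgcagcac

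In the CFB promoter the interferon-response core lies at position -139 from the gene start, read on the opposite strand, and the gamma-activated sequence at position -92, and they do not overlap. The match in C1R is a gamma-activated sequence at position -86. The other start of C1R held no match. In CD59 the same site is counted in 2 overlapping promoters, at positions -128 and -184. Spelling the interferon-response core as AAANNGAAA gave 1 match among the 10 promoters too, beside 10.5% of all promoters. These are matches of letters, and binding was not measured.

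CFB, the factor B of the alternative route, had the largest log2 fold change in PA6/VC1 among the 7 tested genes, each read from its brightest probe. Its probe covers chromosome 6 from 31918992 to 31919147 of hg19, on the + strand. The signal was 50.1, 33.8 and 37.1 on the 3 arrays of T47D-VC1. It was 43.3, 105 and 95 in T47D-PA5. It was 284, 414 and 345 in T47D-PA6. Every T47D-PA6 array was above every other array, and T47D-PA5 replicate 1 lay within the range of T47D-VC1 while its replicates 2 and 3 lay above it. The means were 39.8 (SD 0.30, n = 3) in T47D-VC1, 75.5 (SD 0.70) in T47D-PA5 and 344 (SD 0.27) in T47D-PA6. The log2 fold change in PA6/VC1 was 3.11 (SE 0.33, 95% interval 2.36 to 3.86, limma adjusted p = 0.0014), and it was 2.50 between the arrays of the first scan run and 3.42 between those of the later run. In PA6/PA5 it was 2.19 (SE 0.33, limma adjusted p = 0.0067), with 2.71 and 1.92 within the runs.

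CFB in PA5/VC1 had a log2 fold change of 0.93 (SE 0.33, limma adjusted p = 0.22), and the difference within the first run, -0.21, had the opposite sign to that within the later run, 1.49. With replicates 2 and 3 only it was called in this comparison too (adjusted p = 0.0030), and leaving out T47D-PA5 replicate 1 alone also brought a call (log2 fold change 1.33, adjusted p = 0.030). The call against T47D-VC1 held in all 23 alternative settings for T47D-PA6, with log2 fold changes from 2.01, under normexp background correction, to 3.42, with replicates 2 and 3 only. The call of T47D-PA6 against T47D-PA5 held in 22 of them and was lost in the unpaired test that the methods name (adjusted p = 0.084).

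C1R, the first protease of the C1 complex, is read by 2 probes that lie on the - strand of chromosome 12. The brighter of them, at 7187836 to 7187895 of hg19, had signals of 114, 78.9 and 47.8 in T47D-VC1. In T47D-PA5 they were 68.3, 157 and 166. In T47D-PA6 they were 297, 276 and 286, close to each other and above all 6 arrays of the other lines. The means were 75.4 (SD 0.63, n = 3), 121 (SD 0.72) and 286 (SD 0.05). The log2 fold change in PA6/VC1 was 1.92 (SE 0.39, limma adjusted p = 0.018), and it was 1.38 within the first run and 2.19 within the later run. Against T47D-PA5 it was 1.24 (SE 0.39, limma adjusted p = 0.082), which did not pass although the arrays did not overlap. PA5/VC1 gave 0.68 (SE 0.39, limma adjusted p = 0.45), made up of -0.74 in the first run and 1.40 in the later run. The adjusted p-value of this last comparison was 0.021 with replicates 2 and 3 only, and that of PA6/VC1 was 0.0033.

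The second C1R probe, at 7187567 to 7187626 and much dimmer, had signals of 17.8, 12.3 and 12.4 in T47D-VC1, of 19.5, 25.4 and 33.9 in T47D-PA5 and of 33.2, 37.5 and 54.7 in T47D-PA6. It rose as well in PA6/VC1, by a log2 fold change of 1.55 (SE 0.26, limma adjusted p = 0.0092). This dimmer probe passed the filter only through T47D-PA5 and T47D-PA6, where it was higher. For PA5/VC1 it gave 0.88 (adjusted p = 0.15) and for PA6/PA5 0.67 (adjusted p = 0.15). Both probes thus had the same order of the 3 means. The call of the brighter probe was lost when an array was left out in 4 cases, T47D-VC1 replicate 2 (adjusted p = 0.054), T47D-VC1 replicate 3 (0.062), T47D-PA6 replicate 2 (0.059) and T47D-PA6 replicate 3 (0.063). It was also lost with no filter on dim probes (adjusted p = 0.066) and in the unpaired test (adjusted p = 0.088), and its log2 fold change fell to 1.28 with normexp background correction.

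C1S, the second protease of C1, lies beside C1R on chromosome 12, and its 2 probes were not tested. The brighter, at 7178093 to 7178152 on the + strand, had signals of 13.7, 18.9 and 20.6 in T47D-VC1, of 2.99, 19.1 and 15.4 in T47D-PA5 and of 12.1, 25.8 and 27.0 in T47D-PA6. It was well above background on replicates 2 and 3 of every line and on replicate 1 of none, so the lines overlap and the lowest value of each line came from the first scan run. The other probe, at 7171593 to 7171652, was between 2.72 and 2.90 on all 9 arrays and above background on none. These values give no level of C1S and set no limit on a change in it.

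SERPING1, which encodes the C1 inhibitor, is read by 4 probes on the + strand of chromosome 11, and 2 of them were tested. The first, at 57367781 to 57367840, had signals of 16.2, 12.2 and 12.4 in T47D-VC1, where only 2 arrays were well above background. It had 19.0, 21.7 and 33.1 in T47D-PA5 and 29.9, 43.3 and 55.1 in T47D-PA6. The probe passed the filter through T47D-PA5 and T47D-PA6, the lines where it was higher. Both PTH-AS lines lay above T47D-VC1 on every array, and they overlapped with each other. The log2 fold change was 1.62 (SE 0.27, limma adjusted p = 0.0088) in PA6/VC1, and 0.89 and 1.99 within the runs. It was 0.83 (SE 0.27, limma adjusted p = 0.18) in PA5/VC1 and 0.80 (SE 0.27, limma adjusted p = 0.10) in PA6/PA5. Without T47D-PA6 replicate 1 the last of these was called (1.03, adjusted p = 0.035), and with replicates 2 and 3 only all 3 were (adjusted p = 0.0037, 0.031 and 0.039). The signals in T47D-VC1 were near the lowest signal well above background, which was 9.59 to 15.2 on the 9 arrays.

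The second SERPING1 probe, at 57373891 to 57373950, had signals of 8.85, 14.5 and 4.04 in T47D-VC1, where no array was well above background. It had 2.69, 26.3 and 25.4 in T47D-PA5, where replicates 2 and 3 were well above background, and 37.4, 83.3 and 75.7 in T47D-PA6. It was tested only because all 3 T47D-PA6 arrays were well above background. T47D-PA6 was at least 4.92-fold higher than T47D-VC1, counted on each T47D-VC1 array against its own signal or the weakest that passed as well above background there, whichever was higher (limma adjusted p = 0.066). This probe has the higher mean on the linear scale, and the call of SERPING1 is lost when it stands for the gene, a choice examined after the values were seen. The call was also lost in the unpaired test (adjusted p = 0.082), and with normexp background correction the log2 fold change was 0.46. Another probe, at 57367490 to 57367549, ran from 2.98 to 15.2 in T47D-VC1, from 3.62 to 18.0 in T47D-PA5 and from 16.2 to 29.3 in T47D-PA6. It lay higher on every T47D-PA6 array than on any T47D-VC1 array and was not tested. The last, at 57364942 to 57365001, was above background on no array.

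C3, on which all routes meet, is read by 2 probes on the - strand of chromosome 19. The brighter one reads a stretch from 6679177 to 6679434 and had signals of 124, 62.6 and 55.2 in T47D-VC1. It had 62.1, 45.5 and 64.3 in T47D-PA5 and 115, 111 and 87.7 in T47D-PA6. T47D-VC1 replicate 1 was the highest of all 9 arrays, and without that array T47D-PA6 lay above all others. The log2 fold change in PA6/VC1 was 0.46 (SE 0.30, 95% interval -0.21 to 1.14, limma adjusted p = 0.36), with -0.10 in the first run and 0.75 in the later run. The arrays of PA6/PA5 did not overlap, and the value was 0.88 (SE 0.30, limma adjusted p = 0.10), with 0.90 and 0.87 in the runs. Without T47D-VC1 replicate 1 both comparisons were called (adjusted p = 0.033 and 0.018), as they were with replicates 2 and 3 only (adjusted p = 0.044 and 0.030). PA5/VC1 gave -0.41 (SE 0.30, limma adjusted p = 0.56). The second C3 probe, at 6686136 to 6686195, was tested only because all 3 T47D-PA6 arrays were well above background, and its signals were 11.8 to 26.3 in T47D-VC1, 7.29 to 17.5 in T47D-PA5 and 20.3 to 22.8 in T47D-PA6. It gave 0.41 (limma adjusted p = 0.55) in PA6/VC1 and 1.11 (limma adjusted p = 0.11) in PA6/PA5.

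**Figure D2:**
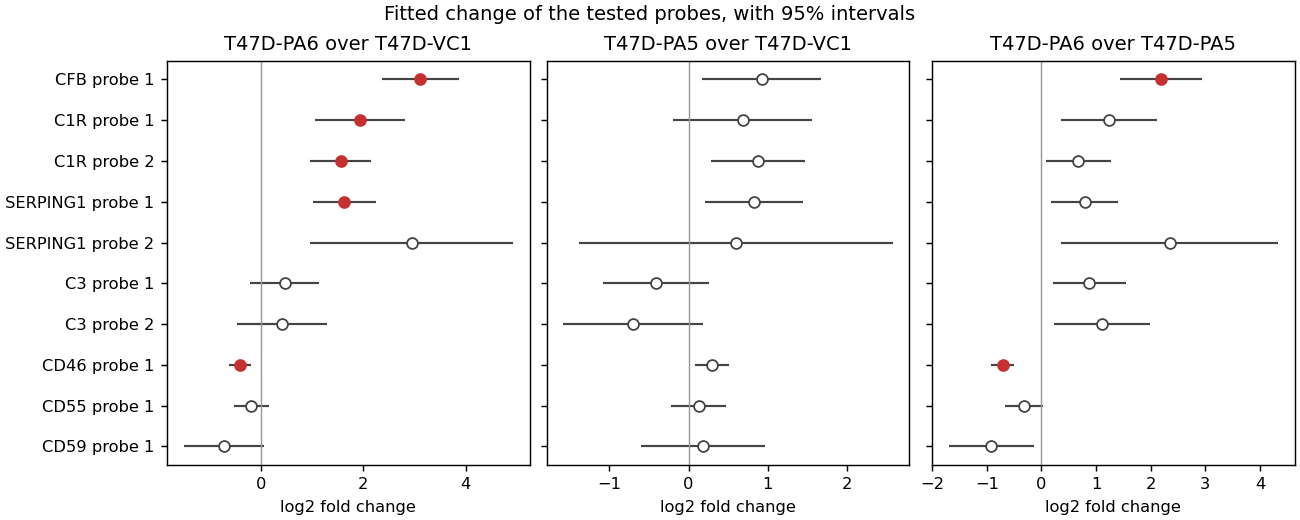
Log2 fold change (x axis) of the 10 tested probes of the complement genes in the 3 comparisons, with 95% intervals from the limma fit. Filled red points have an adjusted p-value under 0.05. Filled points are seen in PA6/VC1 for CFB, both C1R probes, the first SERPING1 probe and CD46, and in PA6/PA5 for CFB and CD46.

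The 3 membrane regulators were well above background on every array, and of them only CD46 was called, in the comparisons of T47D-PA6 with both other lines. CD46, the cofactor that lets factor I cut C3b and C4b, is read at 207940437 to 207940496 on the + strand of chromosome 1. Its signals were 523, 605 and 570 in T47D-VC1. In T47D-PA5 they were 669, 713 and 707. In T47D-PA6 they were 416, 432 and 429. The 3 lines did not overlap, with T47D-PA5 highest and T47D-PA6 lowest. The means were 565 (SD 0.11, n = 3), 696 (SD 0.05) and 426 (SD 0.03). CD46 fell in PA6/PA5, by a log2 fold change of -0.71 (SE 0.09, limma adjusted p = 0.0046), which was -0.69 and -0.72 within the runs. It fell in PA6/VC1 by -0.41 (SE 0.09, limma adjusted p = 0.030), with -0.33 and -0.45 within the runs. In PA5/VC1 it gave 0.30 (SE 0.09, limma adjusted p = 0.17).

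The lower CD46 level against T47D-PA5 was called in all 23 alternative settings. That against T47D-VC1 kept its direction in all 23 and lost its call in 8 of them. These were the unpaired test (adjusted p = 0.071), a fit to the compared lines alone (0.076), and fits without T47D-VC1 replicate 2 (0.098), T47D-VC1 replicate 3 (0.10), T47D-PA5 replicate 2 (0.057), T47D-PA5 replicate 3 (0.060), T47D-PA6 replicate 2 (0.092) or T47D-PA6 replicate 3 (0.098). CD46 was also called with replicates 2 and 3 only, in PA6/VC1 (adjusted p = 0.0061) and in PA5/VC1 (adjusted p = 0.040).

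The genes around CD46 had medians with the same signs as CD46 itself. Within 5 Mb of its probe lie 102 other tested genes, and their median log2 fold change was -0.21 in PA6/VC1, 0.33 in PA5/VC1 and -0.58 in PA6/PA5. In these comparisons CD46 had -0.41, 0.30 and -0.71. Of the 102 genes, 33 lay below CD46 in the first comparison and 41 in the last. In PA6/PA5, 38 of the 102 were called lower and 2 higher, and in PA6/VC1, 17 were called lower and 5 higher. The part of the surrounding stretch of chromosome 1 in the CD46 result was not tested. Around the genes that rose, the medians were near 0, with 0.07 for the 258 neighbours of CFB, 0.02 for the 113 of C1R and 0.01 for the 81 of SERPING1 in PA6/VC1. Of the neighbours of CFB, which lies in the major histocompatibility complex, 28 were called higher and 5 lower in PA6/VC1. Over all tested genes, 4.74% were called higher and 5.38% lower in PA6/VC1, and 3.62% and 6.03% in PA6/PA5.

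**Figure D3:**
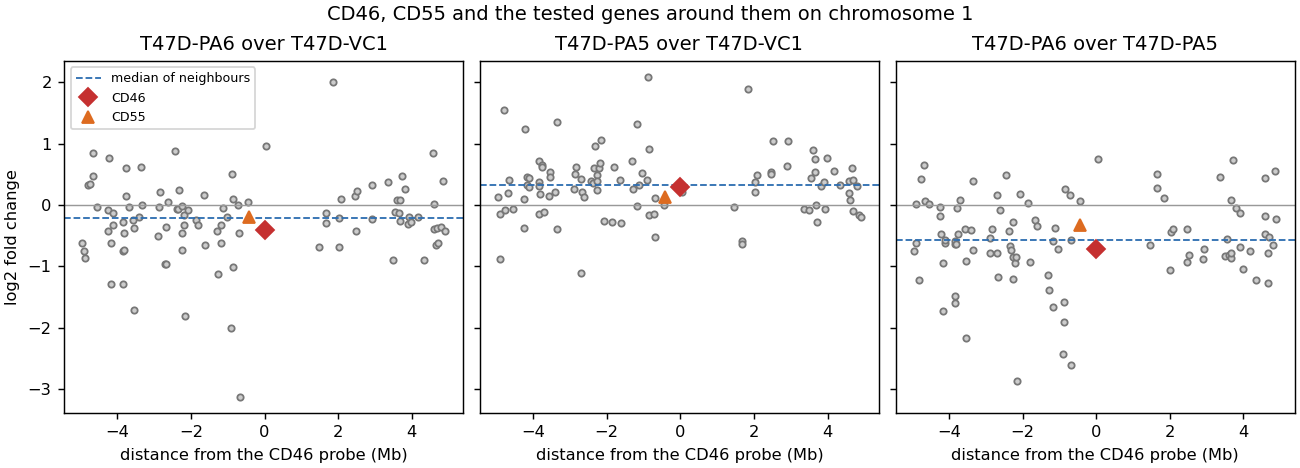
Log2 fold change (y axis) of the tested genes within 5 Mb of the CD46 probe on chromosome 1, by distance from that probe in Mb (x axis), in the 3 comparisons. CD46 is the red diamond, CD55 the orange triangle, other genes are gray, and the dashed line is the median of the 102 neighbours of CD46, at -0.21, 0.33 and -0.58. CD46, at -0.41, 0.30 and -0.71, lies below this median in each comparison and between the quartiles of the neighbours.

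CD55, the decay-accelerating factor, lies in the same cluster of complement regulators as CD46 and is read at 207510071 to 207510130 on the + strand. Its signals were 594, 829 and 798 in T47D-VC1, 753, 817 and 830 in T47D-PA5 and 729, 572 and 630 in T47D-PA6. T47D-VC1 replicate 1 lay among the T47D-PA6 arrays, which were all below those of T47D-PA5. The log2 fold change was -0.19 (SE 0.15, 95% interval -0.54 to 0.15, limma adjusted p = 0.46) in PA6/VC1, with 0.30 in the first run and -0.44 in the later run. The value of PA6/PA5 was -0.32 (SE 0.15, limma adjusted p = 0.23), and in PA5/VC1 0.13 (SE 0.15, limma adjusted p = 0.76). T47D-PA6 was, with replicates 2 and 3 only, called lower than T47D-VC1 (-0.44, adjusted p = 0.010) and than T47D-PA5 (-0.46, adjusted p = 0.0094). The 103 neighbours of CD55 had medians of -0.20 and -0.59 in these 2 comparisons.

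CD59, which blocks assembly of the pore, is read at 33724746 to 33724805 on the - strand of chromosome 11. Its signals were 465, 188 and 207 in T47D-VC1, 425, 257 and 243 in T47D-PA5 and 158, 154 and 162 in T47D-PA6. The replicate 1 arrays of T47D-VC1 and T47D-PA5 were far above the other arrays of their lines, while the 3 arrays of T47D-PA6 were alike and below all others. The log2 fold change in PA6/VC1 was -0.73 (SE 0.34, 95% interval -1.51 to 0.05, limma adjusted p = 0.21), with -1.55 in the first run and -0.32 in the later run. For PA6/PA5 it was -0.92 (SE 0.34, limma adjusted p = 0.14), with -1.43 and -0.66, and in PA5/VC1 it was 0.18 (SE 0.34, limma adjusted p = 0.85). With replicates 2 and 3 only, all 3 comparisons were called (adjusted p = 0.031, 0.0040 and 0.041 in the same order). Without T47D-VC1 replicate 1, PA6/PA5 was called (adjusted p = 0.029).

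**Figure D4:**
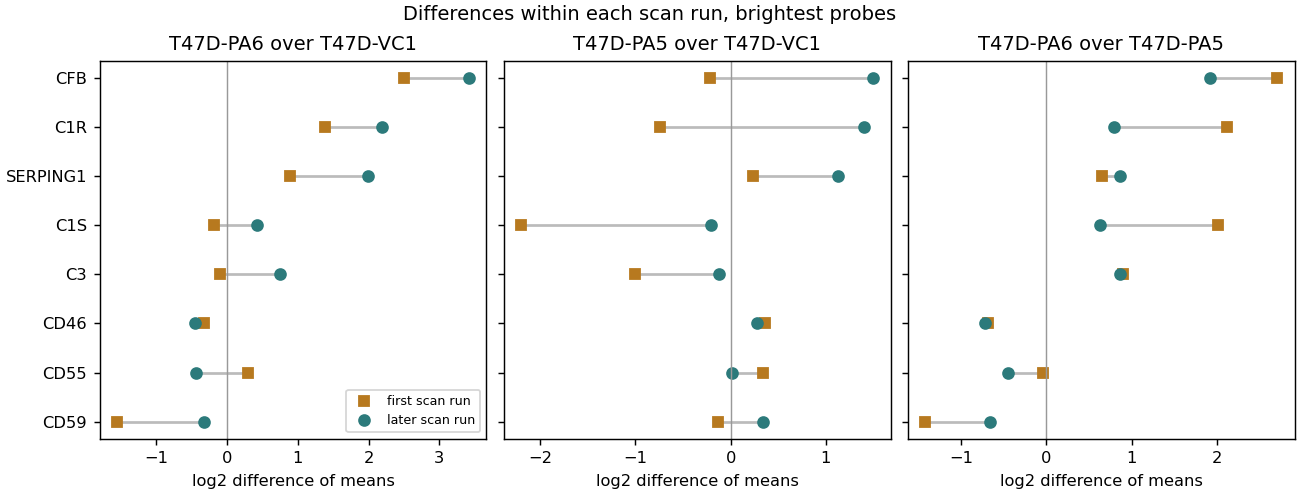
Difference of mean log2 signal (x axis) between lines for the brightest probe of each of the 8 genes, within the first scan run (squares, 1 array a line) and within the later run (circles, 2 arrays a line). For CD46 the runs are close together in all 3 comparisons. In PA5/VC1 they have opposite signs for CFB, C1R and CD59.

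With replicates 2 and 3 only, the number of members called was 7 in PA6/VC1, 5 in PA5/VC1 and 6 in PA6/PA5, against 4, 0 and 2 with all arrays. The 5 were CFB, C1R, SERPING1, CD46 and CD59, and all 5 were higher in T47D-PA5. The share of all tested genes called with these arrays was not computed, so the counts have no background beside them. With slide as a block the counts were 4, 0 and 2. Slide 1 holds replicate 1 of all 3 lines, and the other 2 slides hold 2 and 4 arrays.

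IRF9, a transcription factor that the study followed in these lines, gives the setting. Its mean signals were 194 (SD 0.17, n = 3) in T47D-VC1, 768 (SD 0.57) in T47D-PA5 and 1734 (SD 0.13) in T47D-PA6. Over the 9 arrays, the 3 genes most like CFB among 18234 searched were UBE2L6 and LGALS3BP (Pearson's r = 0.995 each) and IFIH1 (r = 0.992). For C1R they were GARIN5A (r = 0.976), NEK10 (0.974) and UBA7 (0.969), and for SERPING1 JARID2 (0.985) and IFIT2 (0.971) were among them. Genes most like CD46 were RPS6KC1 (0.991), ARHGDIG (0.989) and LBR (0.988). The most alike were ZNF621, CREM and MEAF6 for C3 (r from 0.958 to 0.970), SPACA9, NSMCE1 and HIP1 for CD55 (0.957 to 0.971), EGR3, KAT14 and TRNAU1AP for CD59 (0.959 to 0.971) and MKRN1, MGP and lnc-OBFC1-2 for C1S (0.969 to 0.976). Among the members themselves, r was 0.94 for C1R with CFB, 0.92 for CFB with SERPING1 and 0.88 for C1R with SERPING1, and it was -0.82 for C3 with CD55 and -0.81 for C3 with CD46. These correlations describe 9 arrays that fall into 3 lines and 2 scan runs, which all genes share, and the likeness of a pair was not tested.

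The other genes of the pathway, listed by name, numbered 47, and 18 of them were tested. In PA6/VC1, 3 of the 18 were called higher and 3 lower, with a median log2 fold change of 0.01. In PA5/VC1 1 was called higher and 1 lower, with a median of -0.02. In PA6/PA5 2 were called higher and 2 lower, with a median of 0.07. The background shares and medians over all genes are those given above for each comparison. Among the 29 that were not tested were all 3 chains of C1q, which holds C1r and C1s, and both proteases of the lectin route.

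Of the early components, C4B, a source of the C4 that C1s cuts, had means of 123 (SD 0.21), 119 (SD 0.18) and 251 (SD 0.16) in vector control, incomplete and full-length PTH-AS cells. It rose in T47D-PA6 against both (1.03 and 1.07, SE 0.15, limma adjusted p = 0.0052 and 0.0056). C4B and C4A are nearly identical, so the probe may read both. CFP, properdin, which stabilizes the alternative-route enzyme, had 87.8 (SD 0.31), 64.9 (SD 0.12) and 39.7 (SD 0.33), and it fell in PA6/VC1 (-1.15, SE 0.20, limma adjusted p = 0.011). C2, CFD, C1RL and FCN3 were tested and not called. In the terminal pathway, C5, the source of C5a and of the first part of the pore, had 213 (SD 0.42), 191 (SD 0.04) and 53.1 (SD 0.63). It fell in T47D-PA6 against both (-2.0 and -1.85, SE 0.31, limma adjusted p = 0.0064 and 0.0092). Within the first and later runs the log2 differences of C5 were -0.81 and -2.60 in PA6/VC1, and -1.17 and -2.19 in PA6/PA5. The 62 tested genes within 5 Mb of C5 on chromosome 9 had medians of -0.28 and -0.25 in these comparisons. Of them, 13 were called lower in each comparison, beside 5.38% and 6.03% of all tested genes. The part of that stretch in the C5 result was not tested.

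Among regulators in plasma, C4BPB, a chain of the C4b-binding protein, was at 45.4 (SD 1.12) in T47D-VC1 and 31.7 (SD 0.61) in T47D-PA5 and not well above background in T47D-PA6. The probe was tested only because T47D-VC1 and T47D-PA5, the lines where it was higher, passed the filter. C4BPB was at least 3.92-fold lower in T47D-PA6 than in T47D-VC1 (limma adjusted p = 0.017) and at least 2.73-fold lower than in T47D-PA5 (limma adjusted p = 0.033). Within the first and later runs the log2 differences were -0.96 and -4.20 in PA6/VC1, and -1.03 and -3.39 in PA6/PA5. C4BPB also lies on the long arm of chromosome 1, and its 104 neighbours had medians of -0.19 and -0.58 in these comparisons. Their part in the C4BPB result was not tested. CLU, clusterin, binds the forming pore. Its means were 23472 (SD 0.05) in T47D-VC1, 11911 (SD 0.06) in T47D-PA5 and 19575 (SD 0.09) in T47D-PA6. It was lower in PA5/VC1 (-0.98, SE 0.09, limma adjusted p = 0.0028) and higher in PA6/PA5 (0.72, SE 0.09, limma adjusted p = 0.0044). PA6/VC1 gave -0.26 (SE 0.09, limma adjusted p = 0.11) and was not called.

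ITGB2, the shared chain of the leukocyte complement receptors 3 and 4, rose in both PTH-AS lines, from 22.3 (SD 0.19) to 67.3 (SD 0.48) in T47D-PA5 and 66.3 (SD 0.50) in T47D-PA6 (1.59 and 1.57, SE 0.29, limma adjusted p = 0.038 and 0.014). Leukocyte markers were low in all lines, with 2 of 7 (PTPRC and CD14) well above background on all 9 arrays and 2 (CSF1R and CD163) on none, and CD68 and LYZ not analysed here. Their summed signal was 83.1 to 97.4 in T47D-VC1, 148 to 186 in T47D-PA5 and 142 to 272 in T47D-PA6. In the same order of lines, CD14 had means of 47.8, 115 and 167, ITGAM 12.6, 16.9 and 17.7, and PTPRC 20.3, 20.8 and 18.0. The sum, mostly CD14, was higher in both PTH-AS lines than in T47D-VC1, as ITGB2 was. The part of leukocyte markers in the ITGB2 result was not tested.

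**Figure D5:**
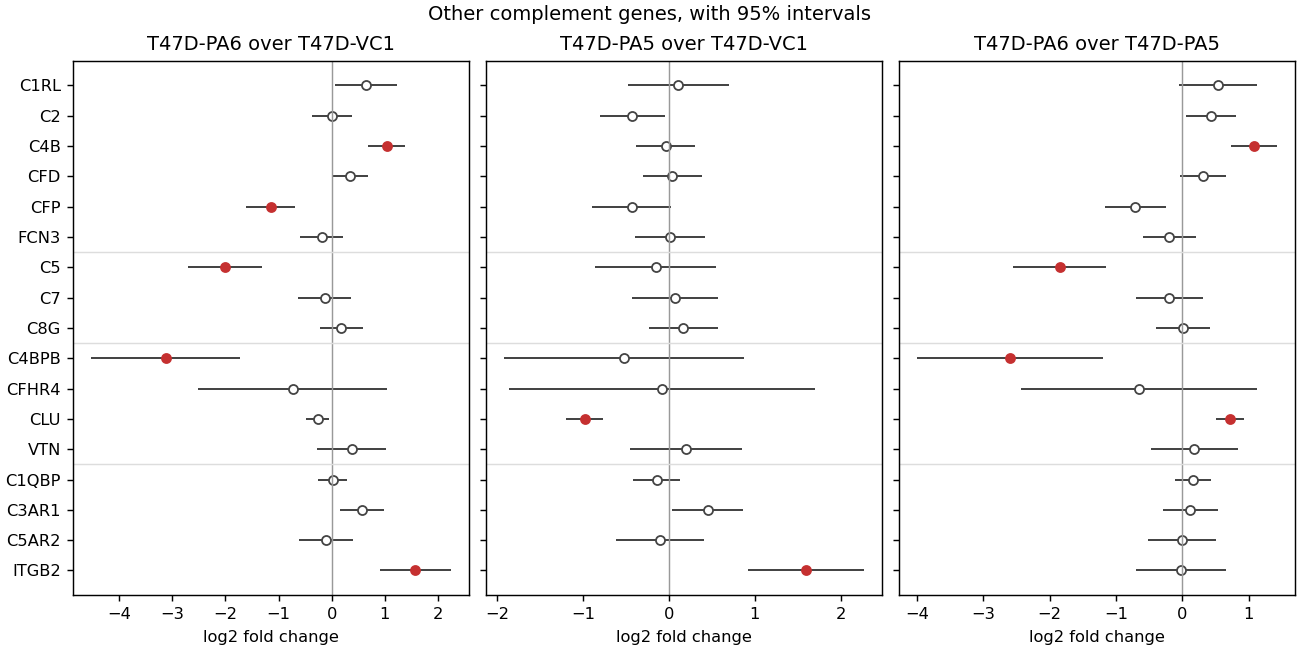
Log2 fold change (x axis) of 17 of the 18 other complement genes that were tested, in the 3 comparisons, with 95% intervals from the limma fit. Filled red points have an adjusted p-value under 0.05, and gray lines separate early components, the terminal pathway, fluid-phase regulators, and membrane regulators and receptors. Among the genes drawn, 2 were called higher and 3 lower in PA6/VC1.

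The arrays had the markers of the labeled cells. All 9 luminal breast epithelial markers, ESR1, PGR and KRT18 among them, were well above background on all 9 arrays. Of 7 fibroblast markers 2 (COL1A1 and THY1) passed as well above background on each array and 4 (COL1A2, COL3A1, DCN and LUM) on none, and their summed signal was 442 to 516 in T47D-VC1, 510 to 889 in T47D-PA5 and 300 to 380 in T47D-PA6. Of 5 hepatocyte markers, ALB, TTR and FGA were well above background on no array, while SERPINA1 and APOA1 were on all, and the sum was 18985 to 29296 in T47D-VC1, 15053 to 20467 in T47D-PA5 and 18992 to 22804 in T47D-PA6. The share of probes well above background was 44.0% to 48.0% per array, and 0 spots were saturated.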

How the data were processed

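RNA of T47D-VC1, T47D-PA5 and T47D-PA6 was hybridized in 3 arrays a line to SurePrint G3 Human Gene Expression arrays. The authors deposited the background-subtracted intensity of each spot from Agilent Feature Extraction (version 10.7.1.1 per the file headers, 9.5.1.1 per the labels), and their own quantile-normalized intensities of the same arrays, which served as an alternative. Of 60901 spots that are not controls, 46 to 117 per array were dropped as outliers. The log2 intensities of a probe's spots were averaged and then quantile-normalized. The number of arrays, 3 a line, limits the precision. Probe coordinates are those of the files (hg19), and promoters are from RefSeq (GRCh38.p14). The other pathway genes named are those called in any comparison. Results of some genes that these rules name are not reported here.

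Comparisons used limma 3.58.1 under R 4.3.3 (lmFit, then eBayes, on all 9 arrays, 6 residual degrees of freedom, two-sided) over 26171 probes. Files were read with the data.table package (version 1.17.8). On simulated data with T47D-PA6 changed in 200 of 26171 probes, limma called 62 of 100 changed 2-fold and 91 of 100 changed 4-fold in PA6/VC1, with 10 other probes. The simulated noise was independent between probes and arrays, without the run difference of the real arrays, so these counts may not hold for them. The lines share replicate numbers in the labels, and replicate 1 of all 3 lay on 1 slide. Deviations of same-numbered arrays from their line means correlated at 0.13 to 0.33 in PA6/VC1, 0.15 to 0.26 in PA6/PA5 and 0.079 to 0.19 in PA5/VC1, and in 6 of 9 pairs an array correlated best with its own number. Every same-numbered correlation was over 0.1 in PA6/VC1 and PA6/PA5, and not in PA5/VC1. T47D-PA6 replicate 2 correlated better with T47D-VC1 replicate 3 (0.25) than with T47D-VC1 replicate 2 (0.13). Replicates 2 and 3 share a scan run, so these correlations cannot tell a pairing by number from the run. The main fit used no pairing in any comparison. Replicate number entered only as a block among the alternatives, for all 3 comparisons. Gene names were updated from RefSeq, which matched 34966 probes, and 23235 kept the name in the files. The alternatives were a 75th percentile shift, normexp (offset 50), the authors' normalized values, no filter and a stricter filter, slide and replicate blocks, replicates 2 and 3 only, each array left out, an intensity trend, the unpaired test that the methods name, the compared lines alone, 1 probe per gene, the mean of a gene's probes and, added after the values were seen, the probe with the highest linear mean. The neighbours of C5 and C4BPB were also looked at after the values were seen. The members and lists were chosen with earlier results of these data known.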

Additional observations from a re-analysis of the deposited data

How the results depend on the processing

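Each of the 7 tested genes was recomputed in the 3 comparisons under 23 alternatives, which gave 480 values. Of these, 441 kept their direction and their side of the threshold, 17 lost a call, 19 gained one and 3 changed sign. SERPING1 has no value under the stricter filter, because its probes were not well above background on all 9 arrays. The 3 sign changes were in PA5/VC1, and neither these values nor those with all arrays were called. CD55 gave -0.025 without T47D-VC1 replicate 1, in a range of -0.025 to 0.22 over the arrays left out. CD59 gave -0.057 without T47D-VC1 replicate 2 and -0.071 without T47D-PA5 replicate 1, in a range of -0.071 to 0.60. The number of members called in PA6/VC1 was 4, in PA5/VC1 0 and in PA6/PA5 2. With replicates 2 and 3 only these counts were 7, 5 and 6, and with the unpaired test 1, 0 and 1. Leaving out each array in turn gave 2 to 5, 0 to 1 and 2 to 4. In the first comparison 2 genes, CFB and SERPING1, were called without T47D-VC1 replicate 2 or 3 or without T47D-PA6 replicate 2 or 3. The 1 gene in the middle comparison was CFB, without T47D-PA5 replicate 1. The 4 genes in the last one came without T47D-VC1 replicate 1, and the 2 added there were C3 and CD59. The cause of these shifts was not tested. The probe with the highest linear mean, chosen after the values were seen, gave counts of 3, 0 and 2. For none of the alternatives was the share of all genes called computed.

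The labels give the lines the same replicate numbers. With the replicate number as a block the counts were 4, 0 and 2, and the block changed no call of a member.

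Signals of C1S, and of SERPING1 in T47D-VC1, near the lowest signal well above background limit what these arrays can show for the C1 complex and its inhibitor. With normexp background correction the log2 fold change of SERPING1 in PA6/VC1 was 0.46 against 1.62.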
